A study of Mus musculus with 6 samples.

Results

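The Six- and Eya-family genes were described cell by cell in the embryonic heart and pharynx of the mouse. The members were taken by symbol from the list of measured genes and are Six2, Six4, Six5, Eya1, Eya2, Eya3 and Eya4, which are 7 of the 32285 genes in the count matrix. None of them was used to sort cells into types. The cells came from the microdissected cardiogenic region of wild type C57BL/6 embryos at E10.5, and the tissue also held mesoderm that is not cardiac, ectoderm and endoderm. The fathers had normal glucose, and the mothers had been given either vehicle (3 samples) or streptozotocin (STZ), a toxin of pancreatic beta cells, and were then hyperglycemic (3 samples). Each sample was loaded on a 10x Genomics Chromium 3′ run, in which a unique molecular identifier (UMI) marks 1 captured RNA molecule. The study addresses development of heart and pharynx in diabetic mothers, but the matrix pools 6 libraries and no source used here links a library to a mother, so vehicle and STZ were not compared.

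SIX-family proteins are homeodomain transcription factors, and EYA proteins are their co-activators. EYA proteins do not bind DNA themselves. They join SIX-family proteins on DNA through a conserved domain that is also a tyrosine phosphatase, while DACH proteins act with the same complexes, often as co-repressors, and PAX proteins act upstream or in parallel. The network is known from the fly eye and, in vertebrates, from the pharyngeal arches, cranial placodes and their sensory neurons, muscle progenitors and kidney. Six2 is best known as a keeper of nephron progenitors and is also active in craniofacial mesenchyme. Six4 acts in muscle and sensory neuron progenitors, and Six5 lies next to the gene Dmpk at the myotonic dystrophy locus. EYA1 is mutated in branchio-oto-renal syndrome and EYA4 in inherited hearing loss.

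The members are scattered over the genome. In the GENCODE M21 annotation of GRCm38 (mm10), Six2 spans chr17:85684277-85688274 on the minus strand, Six4 chr12:73099609-73113456 on the minus strand and Six5 chr7:19094594-19098549 on the plus strand. Eya1 spans chr1:14168954-14310235 on the minus strand, Eya2 chr2:165595032-165771727 on the plus strand, Eya3 chr4:132638987-132724765 on the plus strand and Eya4 chr10:23102963-23350786 on the minus strand. Genes on the opposite strand overlap Eya1 (Gm22616) and Eya2 (Gm28163 and Gm11460), and genes on the same strand overlap Eya1 (Gm37444) and Eya4 (Gm24655).

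Promoter windows, from 250 bases before to 50 bases after a RefSeq transcript start, were given for 5 of the 7 members (Six2, Six4, Six5, Eya3 and Eya4, RefSeq on GRCm38.p6). They are shown for Six2 and Six4, the Six-family genes whose levels differed most between cell types, and only as far as the first base of the GENCODE gene. Both held the letters CCAAT (either strand searched), which stood in 37.4% of the 32851 windows. Capitals mark them, at position -87 from the RefSeq start in Six2 (chr17:85688275-85688504, minus strand) and at position -73 in Six4 (chr12:73113457-73113675, minus strand).
Six2: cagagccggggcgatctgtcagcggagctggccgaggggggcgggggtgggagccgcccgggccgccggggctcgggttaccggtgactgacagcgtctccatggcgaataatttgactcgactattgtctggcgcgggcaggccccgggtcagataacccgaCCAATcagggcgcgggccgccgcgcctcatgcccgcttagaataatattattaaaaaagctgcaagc
Six4: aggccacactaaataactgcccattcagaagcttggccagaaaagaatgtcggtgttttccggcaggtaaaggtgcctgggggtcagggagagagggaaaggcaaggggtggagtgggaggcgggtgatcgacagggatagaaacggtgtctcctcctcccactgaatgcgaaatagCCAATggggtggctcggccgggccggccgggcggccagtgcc
A further RefSeq start of Six4 lies inside the gene. Before it, at position -99, the window holds TCAGGTTTC on the opposite strand, the letters of the MEF3 element that SIX-family proteins bind in muscle genes. These letters occur in 0.429% of the windows, and the shorter TCAGGTT, which this match contains, in 4.07%. The stretch lies at chr12:73113326-73113354, in the untranslated part of exon 1 of the transcript Six4-201 and in the first intron of Six4-202, with the match in capitals.
Six4: tggcctggggGAAACCTGAtcggccagat
None of the other windows of the members held the 9 letters. The window of Six2 had 37 CpG and the windows of Eya4 had 36 and 28, against a median of 7 over all windows. A match of letters describes the sequence and does not show that a protein binds there.

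Of 53362 barcodes, 35962 (67.4%) had at least 2500 detected genes and at most 10% mitochondrial UMIs. The libraries kept 4903 to 7136 cells each, with library medians of 30533 to 35634 UMIs per cell. A barcode sequence seen in another library belonged to 283 cells (0.787%). Cells were assigned to a type when they carried UMIs of a set number of its 6 markers, and 16 types, with the Epcam-positive class described below among them, held at least 50 cells. The gated types are called muscle-like and so on, because they rest on these markers alone. The muscle-like cells (662) were gated on branchiomeric muscle markers such as Myf5, Msc, Tcf21 and Lhx2, and the crest arch-like cells (5933) on Dlx and related genes of arch mesenchyme. An Epcam-positive class (3194 cells) holds cells with at least 2 UMIs of the epithelial gene Epcam that passed no gate, and its leading genes include Pax1, Pax9, Fgf8 and Neurog2. The anterior second heart field-like class (anterior SHF-like, 1199 cells) had 1 of its own markers (Fgf10) among its 10 leading genes, beside Moxd1 and Cntn1. Each other gated type of at least 50 cells had 2 or more. The 6 anterior SHF markers summed to a median of 572 CPM in this class, 683 CPM in muscle-like and 519 CPM in neuron-like cells. They thus do not set the class apart from muscle-like cells. Cells that just reached the minimum number of markers were 798 of the 1199 anterior SHF-like, 213 of 253 paraxial-like and 336 of 451 cushion-like cells. They were also 389 of 662 muscle-like, 843 of 1441 ectoderm-like and 827 of 1518 posterior SHF-like cells. The other 8628 cells that passed no gate (24.0% of retained cells) are called ungated, and 1296 cells (3.60%) passed more than 1 gate and were set aside.

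Levels are given in counts per 1000000 UMIs (CPM), from counts summed over the cells of a type. Ranges in brackets are 95% exact intervals, which cover counting error only, unless they are marked as libraries. A library enters with at least 20 cells of the type. Cells and libraries are not replicates of a treatment here, so no test was made, and levels of different genes were not ranked against each other. In the erythroid-like cells, which carry the most UMIs per cell (median 64808.5), all 7 members had their lowest level, between 0.238 and 2.91 CPM for 6 of them and 16.7 CPM for Eya3. For those 6, shares of cells with a UMI in a type are set beside the erythroid-like share, since free RNA can give UMIs in any droplet. Totals include globin UMIs, and the erythroid markers, globin genes among them, had a summed median of 358365 CPM in erythroid-like cells. The part of these UMIs in the low erythroid-like levels was not tested.

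Muscle-like cells had the highest level of Six4, Six5, Eya1 and Eya4. Six2 was highest in anterior SHF-like cells, Eya2 in neuron-like cells and Eya3 in glia-like cells. A highest level at least 2-fold over the next type, and higher in each library compared, was found for Six2 and Eya2. That is 2 of the 6 members that reached 10 CPM (Six5 did not), and 1828 of 11822 genes at that level met the same rule (15.5%). Muscle-like cells were the highest type for 3.89% of those genes, glia-like cells for 4.24%, neuron-like cells for 12.8% and anterior SHF-like cells for 2.59%. Across the 16 types the highest level was 1143 times the lowest for Eya2, 131 times for Eya4, 97.9 times for Six2 and 89.9 times for Eya1. It was 31.8 times for Six4 and 21.5 times for Six5. For Eya3 it was 2.52 times, below the median of 5.39 over genes at 10 CPM.

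Six2 reached 56.7 CPM (54.3 to 59.2) in anterior SHF-like cells, with 26.7, 53.5 and 77.3 CPM as the lowest, median and highest library. Muscle-like cells followed with 22.9 CPM (libraries 17.0 to 36.1) and Epcam-positive cells with 16.2 CPM (libraries 8.16 to 21.3). Paraxial-like cells had 15.8 CPM (3 libraries, 7.39 to 29.5). The anterior SHF-like value was above the muscle-like value in 6 of 6 libraries (2.47-fold pooled), while the ranges over libraries overlapped. Further down the order, neighbours overlapped over their libraries except epicardium-like and myeloid-like cells, which were compared in 2 libraries. Six2 was 9.32 CPM in crest arch-like cells, 2.13 CPM in endoderm-like and 0.744 CPM in cardiomyocyte-like cells, close to the 0.579 of erythroid-like cells. A Six2 UMI was seen in 51.4% of anterior SHF-like cells and 1.93% of erythroid-like cells, at median depths of 29143 and 64808.5 UMIs. With every cell thinned to 5000 UMIs the shares were 22.3% and 0.345%. Ungated cells held 37.6% of all Six2 UMIs at 23.4 CPM, a larger portion than any of the 16 types held.

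Six4 had a flatter profile. It was 28.9 CPM (26.7 to 31.2) in muscle-like cells, with libraries between 26.3 and 33.4 and a median of 28.7 CPM. Epcam-positive cells had 24.9 CPM, ectoderm-like cells 24.1 and neuron-like cells 23.5, and the ranges of these neighbours overlapped. Crest arch-like cells had 17.8 CPM, with libraries between 16.4 and 19.4. They lay below paraxial-like cells (22.5 CPM) without overlap in 3 libraries. Cushion-like cells (7.63 CPM) lay above cardiomyocyte-like cells (3.99 CPM) without overlap in 6 libraries. A Six4 UMI was seen in 60.6% of muscle-like and 4.83% of erythroid-like cells.

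Six5 was led by muscle-like cells at 8.0 CPM (6.87 to 9.25), with libraries between 6.41 and 9.71. This lead was not stable: without library 1 paraxial-like cells came first, and without library 5 posterior SHF-like cells. Down to the anterior SHF-like cells at 6.75 CPM, the leading types differed by little, and neighbours in that order overlapped over their libraries. Paraxial-like cells had 7.56 CPM pooled and 8.03 to 8.33 in the 3 libraries with enough cells. Neuron-like cells had 1.83 CPM (0.974 to 3.13), and 5.88% of them had a UMI, against 2.48% of the deeper erythroid-like cells. Their 4 libraries, at most 2.39 CPM each, did not reach the range of endothelium-like cells (libraries 2.44 to 3.90 CPM). Cardiomyocyte-like cells had 4.03 CPM of Six5. Its neighbour gene Dmpk was low in all types, with 3.88 CPM in cardiomyocyte-like and 3.84 CPM in paraxial-like cells at the top.

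**Figure D1:**
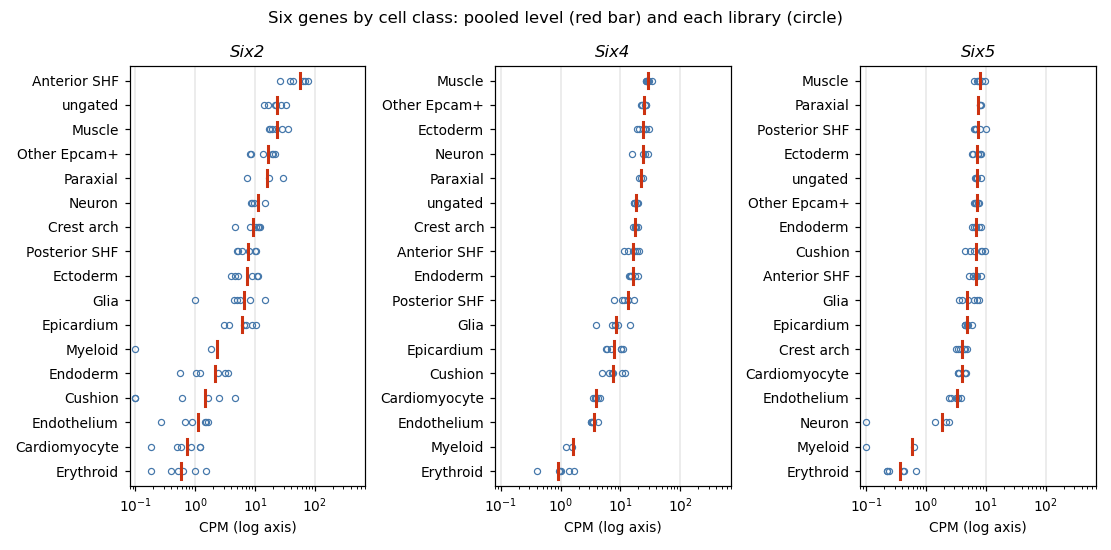
Levels of Six2, Six4 and Six5 (x axis, CPM, log scale) in the 16 types and the ungated cells (y axis, ordered by level within each panel). Red bars are pooled levels and circles are libraries with at least 20 cells, with a library at 0 drawn at the left edge. Six2 spans from 56.7 CPM in anterior SHF-like to 0.579 in erythroid-like cells, while Six5 stays at or below 8.0 CPM.

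Eya1, the main co-activator of arch and placode development, was highest in muscle-like cells at 261 CPM (255 to 268) and nearly as high in neuron-like cells at 247 CPM (235 to 258). The libraries lay at 234, 261 and 285 CPM (lowest, median, highest) in muscle-like cells and at 256, 228, 244 and 296 CPM in the 4 neuron-like libraries, and the ranges overlapped. Epcam-positive cells had 184 CPM (libraries 170 to 200), below neuron-like cells in 4 of 4 libraries and without overlap. Anterior SHF-like cells had the same pooled level, 183 CPM, but a wide spread of 94.3 to 254 CPM over libraries. Ectoderm-like (122 CPM), paraxial-like (107 CPM) and endoderm-like cells (78.4 CPM) followed. Crest arch-like cells came next at 54.6 CPM (libraries 44.7 to 57.8), 2.58 times the glia-like level without overlap. A UMI was seen in 93.2% of muscle-like cells (median 30426 UMIs) and in 5.45% of the deeper erythroid-like cells.

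Eya2 had the widest span between types. Neuron-like cells held 272 CPM (260 to 284), and their 4 libraries lay at 265, 300, 245 and 346 CPM. The next type, Epcam-positive cells, had 21.8 CPM (libraries 16.5 to 27.2), so the groups were far apart and the pooled ratio was 12.5. An Eya2 UMI was seen in 93.1% of neuron-like cells (median 31559.5 UMIs) and in 0.966% of the deeper erythroid-like cells. The 204 neuron-like cells are 0.567% of the retained cells and held 19.6% of all Eya2 UMIs. Their leading genes include Neurod1, Tlx2, Tlx3 and Nhlh2, neuronal transcription factors. Ectoderm-like (17.8 CPM), endoderm-like (14.3), paraxial-like (13.8) and anterior SHF-like cells (12.9) formed a second tier with overlapping libraries. Muscle-like cells, the type where Eya1 and Eya4 were highest, had only 6.62 CPM (libraries 4.72 to 7.55). This lay below the anterior SHF-like level in 6 of 6 libraries.

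Eya3 was even across types. Glia-like cells had 42.1 CPM (39.3 to 45.0), and 12 further types lay between 31.8 and 37.8 CPM. Myeloid-like cells had 25.4 CPM, cardiomyocyte-like cells 22.9 (libraries 21.1 to 24.6) and erythroid-like cells 16.7 (libraries 13.1 to 20.3). The last pair did not overlap, on totals that include globin UMIs. The share of cells with a UMI was 61.8% in erythroid-like and 65.6% in anterior SHF-like cells. It was 8.55% and 17.9% after thinning to equal depth, globin UMIs included.

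Eya4 was led by muscle-like cells at 324 CPM (316 to 331), with 262, 298 and 422 CPM as the lowest, median and highest library. Anterior SHF-like cells had 181 CPM (177 to 185), with libraries between 137 and 209. The groups did not overlap, and the ratio was 1.79. The next of the 16 types was paraxial-like at 59.6 CPM, again without overlap in the 3 libraries that held them. Ungated cells, which are no single type, had 129.6 CPM (libraries 97.1 to 168) and held 42.6% of all Eya4 UMIs. Epcam-positive cells had 55.8 CPM and cushion-like cells, the mesenchyme of the forming heart valves, 51.3 CPM (libraries 38.8 to 75.9). The pooled paraxial-like value includes libraries with fewer than 20 cells, which are not in its range. Cardiomyocyte-like cells were low at 12.0 CPM, though 26.9% of them had a UMI against 3.86% of erythroid-like cells.

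**Figure D2:**
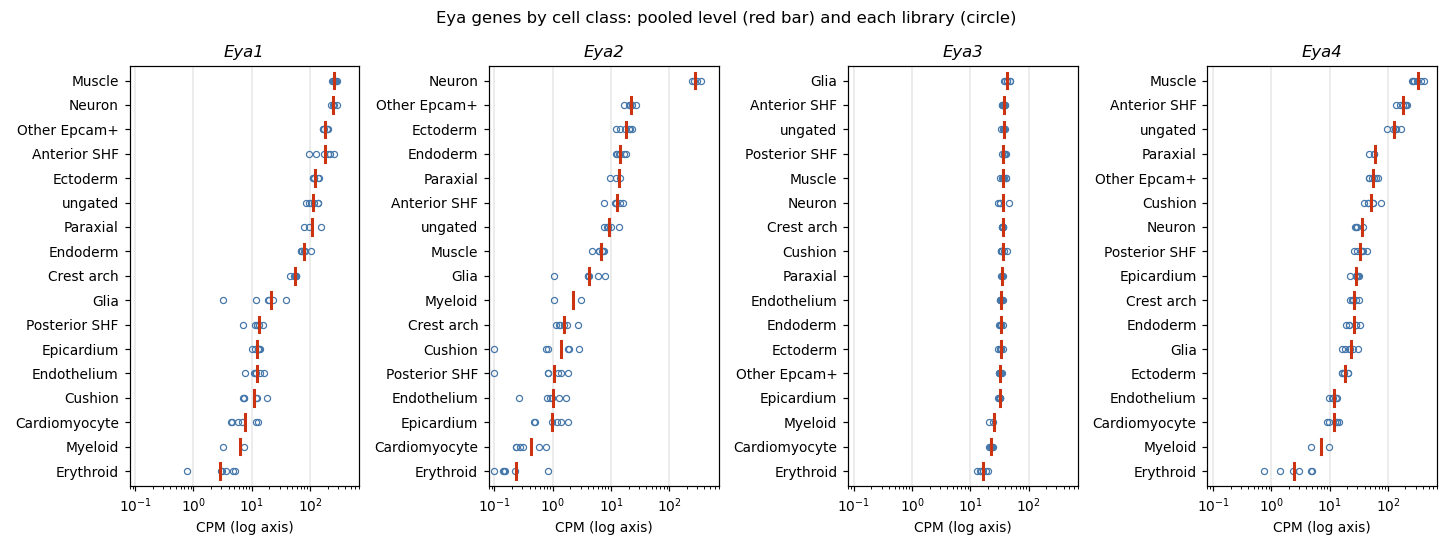
Levels of Eya1, Eya2, Eya3 and Eya4 (x axis, CPM, log scale) in the 16 types and the ungated cells (y axis, ordered by level). Red bars are pooled levels and circles are libraries with at least 20 cells, with a library at 0 drawn at the left edge. Eya2 drops from 272 CPM in neuron-like cells to 21.8 in the next type, while Eya3 keeps within 16.7 to 42.1 CPM.

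Over the 16 types, levels of Six4 and Eya1 ran most closely together among the 21 pairs of members, with a Pearson r of 0.906 and a Spearman rho of 0.953 on log2(CPM + 1). Six5 and Eya2 ran least closely by Pearson correlation (r = 0.173, rho = 0.424), and Eya2 and Eya3 by Spearman correlation (r = 0.408, rho = 0.332). The types share libraries, so these values only describe the profiles. They do not show that the genes are on in the same cells, which was asked separately.

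In muscle-like cells, 77.0% (73.6 to 80.2) had UMIs both of a Six-family member and of Eya1, Eya2 or Eya4. The share was 66.8% in anterior SHF-like, 59.8% in neuron-like, 56.9% in Epcam-positive and 47.7% in crest arch-like cells. It was 13.3% in cardiomyocyte-like and 3.38% in erythroid-like cells. In muscle-like cells 1.96% had a Six-family member alone, and 18.7% had the Eya members alone. In cushion-like cells 8.65% and 43.9% did. Posterior SHF-like cells had a Six-family member alone (24.2%) about as often as the Eya members alone (23.3%), and in epicardium-like cells the shares were 20.7% and 22.4%. These shares rise with depth. With 5000 UMIs per cell, both were seen in 21% of muscle-like, 24.2% of anterior SHF-like, 17.2% of neuron-like and 13.8% of Epcam-positive cells. Crest arch-like cells fell to 3.74%, below paraxial-like cells at 9.88% (49.8% before thinning).

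To hold depth fixed, the number of cells with both genes was divided by the number that the separate shares give within each library and depth stratum (5 strata per library). Were depth fully fixed, a ratio of 1 would mean that knowing one gene says nothing of the other. Depth still varied within strata, and the median ratio over all genes was between 1 and 1.099, by member and group. Of 291 combinations of a pair and a cell group with at least 10 expected cells, 44 had a ratio of at least 1.25 and 4 of at most 0.8, with a median of 1.06. Among all genes seen in at least 5% of a group's cells, paired with the members, 3.05% reached 1.25 and 1.76% fell to 0.8, although these genes were chosen by another minimum. Cardiomyocyte-, endothelium- and epicardium-like cells gave 22 of the 44, at 8 of 17, 6 of 16 and 8 of 20 combinations. By member, 0% to 15% of all genes reached 1.25 in cardiomyocyte-like, 0% to 7.19% in endothelium-like and 0% to 11.2% in epicardium-like cells. A Six2 UMI was in 1.88%, 2.66% and 13.8% of these cells, against 1.93% of erythroid-like cells, and an Eya4 UMI in 26.9%, 23.4% and 42.8%. In cardiomyocyte-like cells Six2 and Eya1 were seen together in 42 cells against 12.6 expected, but 15% of genes reached 1.25 with Six2 there. In erythroid-like cells, a Six-family member and an Eya member other than Eya3 were together 3.97 times as often as their shares give. High ratios were general there, since 26.6% of genes reached 1.25 with Six4 and 30.8% with Eya1. With barcodes of high doublet score removed, 36 of 275 combinations over all groups reached 1.25 and 3 were at 0.8 or less.

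In muscle-like cells none of the 21 pairs passed either bound. Few genes of any kind did so with a member there, 1.19% at 1.25 or more and 1.06% at 0.8 or less, so none of 21 is near the background. Six4 and Eya1 were together in 390 cells against 383 expected (ratio 1.02, libraries 1.01 to 1.03), and Six2 and Eya1 in 235 against 237 (0.993). Most of these cells have Eya1 and Eya4, so a ratio with either has little room to rise. Among pairs without them, Six2 and Six4 gave 1.01 (163 cells expected), Six2 and Six5 0.900 and Six2 and Eya2 1.15. In anterior SHF-like cells Six2 and Eya2 were together in 204 cells against 144 expected. That ratio of 1.42 (1.23 to 1.63) was above 1 in 5 of 5 libraries. Of 12457 genes, 1.65% reached 1.25 with Six2 in these cells and 3.88% with Eya2. Six2 and Eya1 gave 1.10 (1.01 to 1.204) there.

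Ungated cells had Six2 together with its possible partners more often than depth gives. Six2 and Eya2 were in the same cell 522 times against 318 expected (1.64, libraries 1.49 to 2.25), and Six2 and Eya1 1616 times against 1186 (1.36, libraries 1.32 to 1.45). Six2 with Eya4 gave 1.30. Of 11970 genes, 2.81% reached 1.25 with Six2 in these cells. The ungated cells hold several types, with Pax3 and Foxd1 among their leading genes, and the part of that mixture in the ratios was not tested.

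Crest arch-like cells showed the opposite for Six2 and Eya1. They were together in 483 cells against 610 expected, a ratio of 0.791 (0.722 to 0.865), below 1 in 6 of 6 libraries (0.737 to 0.908). With Six2, 2.9% of 12030 genes were at 0.8 or less there. Six2 with Eya4 gave 1.05 and Six4 with Eya1 1.04 in the same cells. The other low ratios were Six2 with Six5 in posterior SHF-like cells (0.740) and Eya1 and Eya2 with Eya4 in cushion-like cells (0.751 and 0.699), and their intervals included 1. The ratio of Six2 with Eya1 in crest arch-like cells lies at the bound: it was 0.8005 without library 1 and 0.814 with 1 more marker per gate, and in each of these settings 1 other combination was at 0.8 or less.

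**Figure D3:**
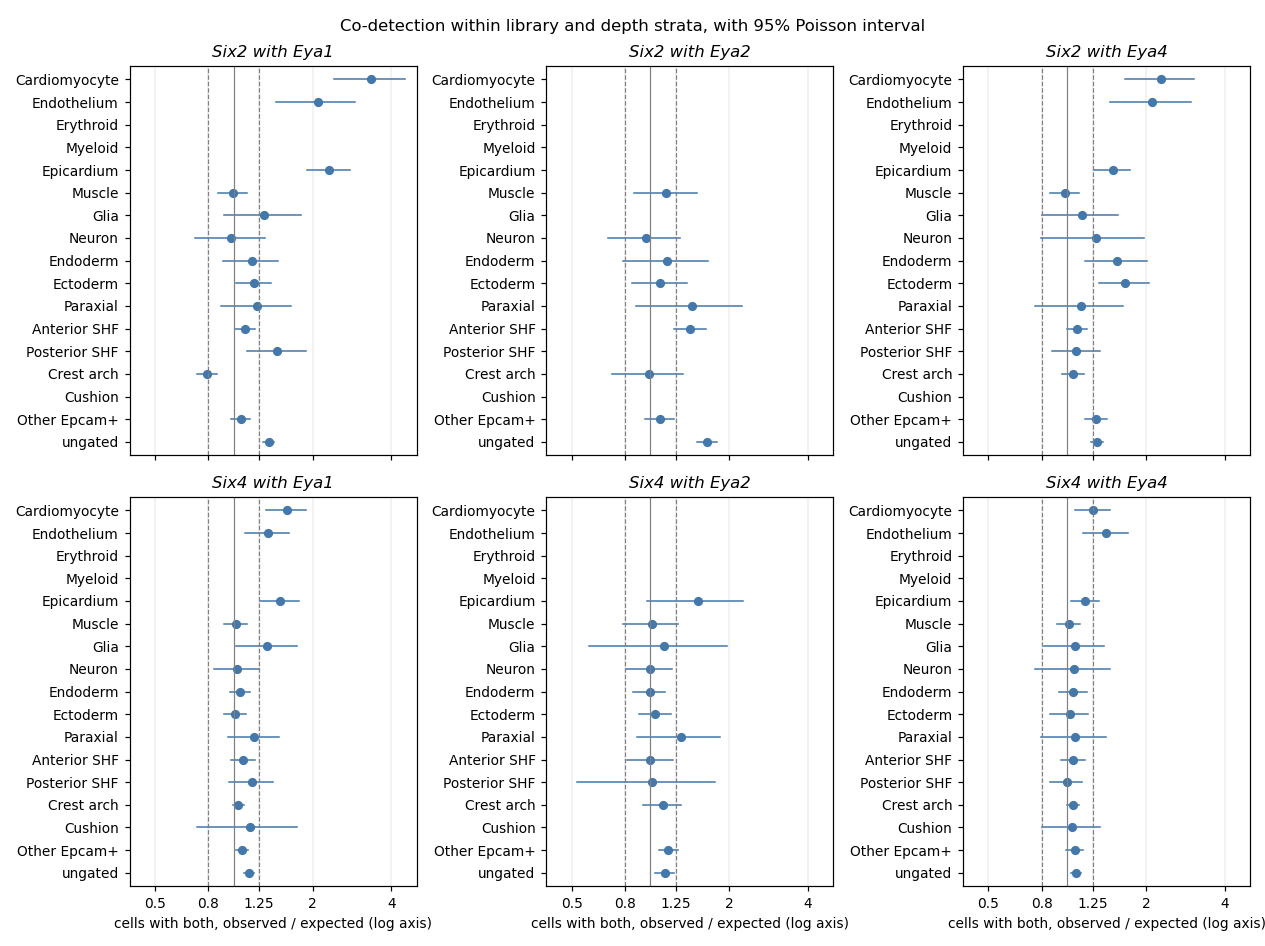
Cells with UMIs of both genes, observed over expected (x axis, log scale), for Six2 and Six4 with Eya1, Eya2 and Eya4 in each cell group (y axis). Bars are 95% Poisson intervals of the observed number, with the expected number taken as fixed, and dashed lines stand at 0.8 and 1.25. Rows without a point had fewer than 10 expected cells. Six2 with Eya1 lies at 0.791 in crest arch-like and 1.36 in ungated cells, and the muscle-like points lie near 1.

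The genes seen most and least often with a member led to a closer look within types, and the splits that follow were chosen with those values known. Genes of the Hox clusters mark position along the pharynx: the front arch lacks them, and paralogs with higher numbers appear one after another towards the back. In crest arch-like cells Hoxa4, Hoxc4, Hoxb4 and Hoxd4 were the genes most often seen with Six2 (ratios 3.20 to 3.72). Splitting the cells by these genes therefore restates that choice for Six2, whose values are given as a description only. In the 1315 cells with a UMI of one of them, Six2 was 33.1 CPM (31.6 to 34.6), with libraries at 20.5, 34.6 and 39.4 CPM (lowest, median, highest). In the 839 cells with a Hox3 but no Hox4 UMI it was 2.29 CPM, in the 3162 with only Hoxa2 or Hoxb2 1.43, and in the 617 with none of these 1.40 CPM, at most 3.22 in a library. A Six2 UMI was in 51.0% of Hox4 cells and 2.76% of cells without Hox. After thinning it was 12.5% and 0.324%, with Hox4 cells the deeper ones (median 42226 against 30057 UMIs).

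Six4 and Eya1 were both lowest in Hox4 cells. Six4 was 13.4 CPM in Hox4 cells and 23.0 CPM in cells without Hox (ratio 0.584, lower in 6 of 6 libraries). Eya1 was 32.7 CPM in Hox4 cells (libraries 26.9 to 37.8) and 50.4 in Hox3 cells (libraries 45.4 to 55.4). It was 65.9 in Hox2 cells (libraries 50.7 to 72.0) and 55.0 in cells without Hox (libraries 35.2 to 81.1). Hox4 cells did not overlap with Hox3 or Hox2 cells. They overlapped with cells without Hox and were below them in 5 of 6 libraries, with library 1 the other way (37.4 against 35.2 CPM). Eya2 was 1.46 CPM in Hox4, 1.40 in Hox3 and 1.23 in Hox2 cells, so it was not lowest in Hox4 cells. It was 4.61 CPM in cells without Hox (libraries 1.36 to 6.94), above Hox4 cells in 5 of 6 libraries. Eya4 was 38.0, 19.97 and 37.7 CPM in Hox4, Hox2 and Hox-free cells, so its low point lay in between. Eya3 was 34.1 CPM in Hox4 and 39.0 in Hox-free cells. By pooled level Six2 was highest in Hox4 cells, which restates the choice of the split, and Eya1 in Hox2 cells. For Eya1, Hox2 cells overlapped with cells without Hox, and library 5 went the other way (72.0 against 81.1 CPM). The low ratio of Six2 with Eya1 was known when the split was chosen, so these levels give it no separate support.

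Epcam-positive cells were split by Pax1, a transcription factor gene of the pharyngeal pouches, and Neurog2, which starts neuron formation in cranial placodes. Cells with Neurog2 but no Pax1 UMI (376) had 76.8 CPM of Eya2 (libraries 65.1, 76.2 and 84.1 as lowest, median and highest). Cells with neither (1679) had 10.1 CPM (libraries 8.85 to 12.5). Neurog2 belongs with Mfng, Dll1 and Lfng, genes of Notch signalling, to the genes most often seen with Eya2 in these cells, so for Eya2 this gap describes the choice of the split. Eya1 was 372 CPM (libraries 342 to 395) against 144 CPM (libraries 119 to 175), 2.58-fold, and Six4 34.6 against 21.2 CPM. Six2 was higher as well, at 29.4 against 20.8 CPM in 6 of 6 libraries, while Eya3 and Eya4 differed by less than the spread between libraries.

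Cells with Pax1 but no Neurog2 UMI (1122) had another mix. Eya2 was 20.6 CPM and Eya1 179 CPM, above the cells with neither in 6 and 5 of 6 libraries. Six4 was 26.5 CPM, above them in 6 of 6 libraries (ratio 1.25). Six2 was 6.99 CPM, Eya3 27.9 CPM and Eya4 39.7 CPM, below them in 6 of 6 libraries (ratios 0.336, 0.789 and 0.597). Pax1 cells were deeper (median 32685 against 25002 UMIs). In endoderm-like cells, where the gate used neither gene, the split by Pax1 gave 126 against 58.9 CPM of Eya1 (2.14-fold, 6 of 6 libraries), 20.3 against 11.8 CPM of Eya2 and 20.9 against 14.2 CPM of Six4. Six2 stayed low there, at 2.34 and 2.05 CPM.

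Muscle-like cells with a Myf5 UMI (440), the first myogenic factor gene, had less Eya4 than those without (294 against 400 CPM, lower in 6 of 6 libraries) and less Eya1 (244 against 304 CPM, 5 of 6). Eya2 was 7.69 against 3.91 CPM, higher in 6 of 6 libraries (ratio 1.97, 1.27 to 3.16). The lower value rests on 25 UMIs in 222 cells. For Six2, Six4 and Six5 the counting interval of the ratio included 1. The Myf5 cells were deeper (median 32964 against 26604 UMIs). Myf5 is also a marker of this gate, so cells without it entered on 3 or more of the other markers, and the part of that rule in these differences was not tested.

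**Figure D4:**
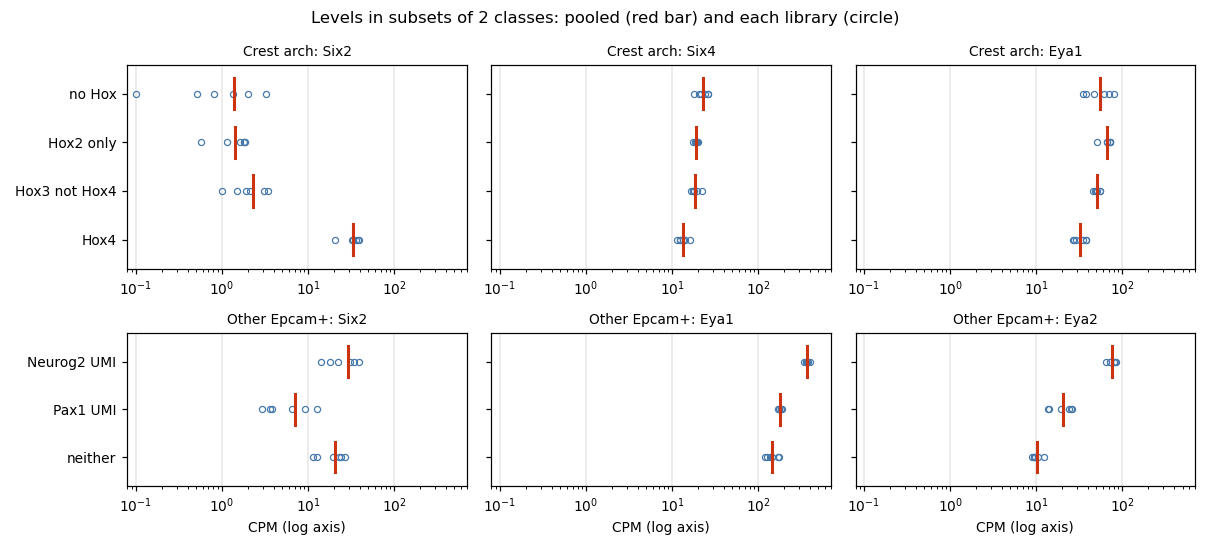
Levels (x axis, CPM, log scale) in subsets (y axis) of crest arch-like and Epcam-positive cells, split by UMIs of the genes named. Red bars are pooled levels and circles are libraries with at least 20 cells, with a library at 0 drawn at the left edge. Six2 is 33.1 CPM in Hox4 cells and 1.40 in cells without Hox, and Eya2 is 76.8 CPM with Neurog2 and 10.1 with neither gene.

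A list of 34 genes that act with SIX- and EYA-family proteins (other Six-family, Dach and Pax genes, described targets and phosphatase partners) was read the same way. At least 10 CPM in a type was reached by 25, and 22 of these were no gate marker. Their highest type was the Epcam-positive one for 5, neuron-like for 4, muscle-like for 3 and anterior SHF-like for 1, with the rest spread over 7 types. Over all genes at 10 CPM these were the highest types for 1.07%, 12.8%, 3.89% and 2.59%. Dach1, the co-repressor gene, was 723 CPM in neuron-like cells (libraries 643 to 825) and 393 CPM in anterior SHF-like cells, the types that led Eya2 and Six2. The neurogenic genes Neurog1 (63.2 CPM), Neurog2 (109 CPM) and Neurod1 (415 CPM) shared the neuron-like maximum of Eya2. Pax1 (91.5 CPM), Pax8 (27.4 CPM) and Pax9 (90.4 CPM) were highest in Epcam-positive cells, and Pax3 (146 CPM) and Dach2 (145 CPM) in paraxial-like cells; these 5 were named after their values were seen. Among list genes at 10 CPM that are no gate marker, the muscle-like maxima were Ski (50.9 CPM), H2afx (496 CPM) and Abl1 (63.5 CPM). Ski is a relative of the Dach genes, H2afx encodes the histone dephosphorylated by EYA, and Abl1 is a kinase gene. The next types followed these 3 closely, at 50.2, 471 and 63.3 CPM. The gate markers Tbx1 (184 CPM), Fgf10 (110 CPM) and Myf5 (43.4 CPM) were highest in muscle-like cells as well. Anterior SHF-like cells followed for Tbx1 (102 CPM) and Fgf10 (70.6 CPM), and paraxial-like cells for Myf5 (7.81 CPM). In anterior SHF-like cells the maximum was that of Slc12a2 (54.6 CPM), and in glia-like cells that of Ppp2r2a (171 CPM), a phosphatase subunit gene. Six3 and Six6, the eye and forebrain members, were at most 0.171 and 0.391 CPM in any type.

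The genes whose levels over the 16 types most resembled those of a member were, by Pearson r on log2(CPM + 1), Gas2 for Six2 (r = 0.913), Mybl1 for Six4 (0.963) and for Eya1 (0.904), and Ctdsp2 for Six5 (0.984). They were Spock2 for Eya2 (0.918), Smarca4 for Eya3 (0.983) and Ntng1 for Eya4 (0.951). The next genes in order were Scn3a and Tafa2 for Six2 (0.897 and 0.868), Rnf24 and Vps37d for Six4 (0.954 and 0.949), Yap1 and Lrp6 for Six5 (0.947 and 0.945) and Lypd1 and Gas2 for Eya1 (0.902 and 0.902). They were Elavl2 and Apba2 for Eya2 (0.913 and 0.911), Peli1 and Ambra1 for Eya3 (0.979 and 0.977) and Adcy2 and Gas2 for Eya4 (0.895 and 0.892). This ranking is loose: by Spearman correlation, 3 of the 21 nearest genes stayed among the 3 nearest of their member.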

How the data were processed

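Single-cell RNA of 3 vehicle and 3 STZ samples was read from 1 deposited matrix of raw UMI counts, whose software line, per the file headers, names Cell Ranger 5.0.0. The submitters' processing notes also name CASAVA 1.8, Seurat 4 and mm10. The labels' description names a chromatin assay, while the titles and kit name RNA. Libraries were told apart by barcode suffix and have no group, so the matrix is 1 sample and no p-value was computed. Library totals over all barcodes were 200462921 to 248426458 UMIs.

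Cells were gated on markers, with minimums set from marker counts. The rule of at most 1 Epcam UMI in mesodermal and crest gates, the Epcam-positive class, the subset splits and the bounds of 1.25 and 0.8 were chosen after values had been seen. The members and lists were chosen with earlier results of these data known. A further family gene and some other genes are not reported here. Named genes are all members, network genes whose highest type is that of a member, and the 3 genes most like each member among those at 10 CPM, markers left out. Further genes (gate markers, leading genes, the Hox, Pax and Notch genes beside the splits, and Six3 and Six6) were named after their values had been seen. Cells in more than 1 gate were set aside as possible doublets, and removing 1746 barcodes with high simulated-doublet scores was an alternative. Thinning left out 4 cells. Intervals are exact Poisson or Clopper-Pearson. The co-detection ratio was tested on simulated data. Of the gene IDs, 32235 were in GENCODE M21. Python 3.11.15, numpy 2.4.6, scipy 1.17.1, pandas 2.3.3 and matplotlib 3.10.9 were used.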

Additional observations from a re-analysis of the deposited data

How the results depend on the processing

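Of 295 values recomputed under the alternatives, 247 stayed within 1 SD over libraries of the reported value or, for counts, within 1.5 times the reported count, and 48 did not. The highest type of a member stayed in 80 of 84 settings. Besides thinning, Six5 lost its lead in muscle-like cells without library 1 (then paraxial-like) and without library 5 (then posterior SHF-like); 2 members were called in every setting. Thinning each cell to 5000 UMIs gave 6.65 CPM of Six5 in muscle-like cells (highest then in paraxial-like cells), 288 CPM of Eya1 in muscle-like cells, 318 CPM of Eya2 in neuron-like cells and 34.0 CPM of Eya3 in glia-like cells (highest then in anterior SHF-like cells). Combinations at 1.25 or more numbered 29 of 123 after thinning, 78 of 288 without strata and 36 of 275 with doublet-scored barcodes removed, against 44 of 291, and 40 to 47 with a library left out. Those at 0.8 or less numbered 11 after thinning, 1 with 1 more marker per gate and 1 to 4 with a library left out. Six2 with Eya1 in crest arch-like cells ranged from 0.481 to 0.864 and Six2 with Eya2 in ungated cells from 1.59 to 2.26. No paired analysis was possible because no library can be linked to a sample's replicate number, and the result comes from no test. The planned comparison of STZ with vehicle and its alternatives were not run for the same reason.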

Other observations

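Levels of Six2 and Eya1 in anterior SHF-like cells differed between libraries, and no source used here ties a library to a treatment. In libraries 1 to 6, Six2 was 37.8, 43.8, 26.7, 69.4, 63.3 and 77.3 CPM, and Eya1 was 94.3, 127, 177, 254, 202 and 218 CPM. Six2 differed between libraries in other cells too. It was 19.1, 17.9, 17.0, 36.1, 22.1 and 28.1 CPM in muscle-like cells and 8.63, 13.7, 8.16, 20.4, 21.3 and 19.5 CPM in Epcam-positive cells. Over all retained cells it was 5.67, 9.81, 6.57, 17.0, 12.0 and 13.4 CPM. In these groups each of libraries 1, 2 and 3 was lower than any other, as in ectoderm-, endoderm-, epicardium-, cardiomyocyte-like and ungated cells. Posterior SHF-like cells were not split so, at 6.05, 10.2, 5.17, 7.90, 10.2 and 4.94 CPM. In crest arch-, endothelium-, glia- and cushion-like cells library 2 was above 1 or more of libraries 4, 5 and 6. Counts of types differed too, with 7, 15, 8, 39, 144 and 40 paraxial-like cells. Their part in the all-cell level was not tested. Eya1 in muscle-like cells was 269, 285, 274, 234, 253 and 248 CPM. There each of libraries 1, 2 and 3 was higher than any other library. In Epcam-positive cells Eya1 was 172, 194, 170, 200, 170 and 194 CPM. In anterior SHF-like cells Isl1, a marker of the gate and a heart field gene, was 288, 281, 293, 209, 200 and 214 CPM. The other markers of the gate did not all move in the same direction. In these cells Isl1 and Nkx2-6 were higher in each of libraries 1, 2 and 3 than in any other library. In the same cells Six2, Eya1, Tbx1 and Foxc1 were lower in each of libraries 1, 2 and 3 than in any other library. Fgf10 and Sema3c were not split in this way. The cause of this split was not tested. Nkx2-6 was 36.4, 35.0, 24.4, 19.7, 17.7 and 21.2 CPM and Tbx1 75.7, 93.4, 88.8, 129, 99.02 and 112 CPM. Foxc1 was 49.1, 40.1, 36.2, 50.8, 52.2 and 52.8 CPM, while Fgf10 kept within 63.8 to 78.0 CPM and Sema3c within 121 to 139 CPM. The libraries held 181, 221, 91, 239, 235 and 232 of these cells.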
